A study of Oryza sativa with 6 samples.

Results

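The genes of the small subunit of Rubisco, the enzyme that fixes carbon dioxide in the Calvin cycle, were followed in developing rice seeds. The members were chosen as a list of 5 locus identifiers, 1 on chromosome 2 and 4 on chromosome 12. Of these, 4 were found among the 55986 loci of the table: LOC_Os02g05830 on chromosome 2 and LOC_Os12g17600, LOC_Os12g19381 and LOC_Os12g19470 on chromosome 12. No row carried the identifier LOC_Os12g19394, so that member was not analysed here. All 4 passed the minimum of 1 RPKM (reads corrected for gene model length and library depth) for the test. The members and the gene lists below were taken up with earlier results of these data known.

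Seeds of rbpl, a rice line with a knockdown of RBP-L, an RNA-binding protein, were set against seeds of the wild-type cultivar ZH11. Each group had 3 biological repeats, called rbpl-1 to rbpl-3 and WT-1 to WT-3 below. All were dehulled seeds of 10 to 14 days after flowering from plants kept in growth chambers at 27 °C, lit for 12 h of the day and dark for 12 h. Only 1 knockdown line was sampled, so RBP-L loss and line descent cannot be told apart in any difference below. The sources used here do not give how the knockdown was made, nor how many seeds or plants went into a library.

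Rubisco is built from large subunits encoded in the chloroplast genome and small subunits encoded by a family of nuclear genes. The small subunit is made in the cytosol, imported into the chloroplast and joined to large subunits that chaperonins have folded, and Rubisco activase then keeps the active sites free of inhibitory sugar phosphates. Rice has a set of small subunit genes on chromosome 12 that serve leaf blades, and a more distant one on chromosome 2, known in rice as RBCS1, that is active mainly outside the leaf blade. The developing rice grain carries a green layer in its pericarp, around an endosperm that fills with starch and storage protein. The identifiers are used as names below, because the RefSeq gene table gives the symbol RBCS1 to a gene of chromosome 12.

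RBP-L transcript (LOC_Os04g53440) served as the check of the labels. Its level was 26.2% of the wild-type mean in rbpl, with a log2 fold change of −1.86 ± 0.11 (SE; limma adjusted p of 0.000159). The libraries held 44187374 to 50714582 reads, as recovered from the RPKM steps. WT-1 stood apart from its group. It lay at least 2-fold from both other wild-type libraries at 576 of the 17507 tested loci, while each of the other 5 libraries had 3 to 14 such loci. The tissue label was checked against storage genes. The 11 endosperm loci summed to 23797 to 28427 RPKM in rbpl and to 24721 to 37110.4 RPKM in the wild type. The oleosin loci LOC_Os03g49190 and LOC_Os04g46200, whose proteins coat oil bodies in embryo and aleurone, averaged 3275 and 1808 RPKM in rbpl and 2916 and 1898 RPKM in the wild type. Of the 11 endosperm loci 1 rose by limma, the glutelin locus LOC_Os02g15090 (1.67-fold, adjusted p of 0.0256), and 0 fell. Its call was kept without WT-1 and lost without each of the other 5 libraries and with no filter. Among the uncalled loci, the glutelin loci GLUA1 (LOC_Os01g55690) and GLUA2 (LOC_Os10g26060), named here after their values were seen, had all 3 rbpl libraries below all 3 wild-type libraries. So did WX (LOC_Os06g04200) and BEIIB (LOC_Os02g32660). Of the 11 endosperm loci 5 had groups that did not overlap, 1 of them with rbpl above. Over all 17507 tested loci these counts were 5270 and 2140. GLUA1 averaged 2926 ± 509.6 RPKM in rbpl and 5377 ± 1610.3 RPKM in the wild type, and GLUA2 averaged 1985 ± 304 RPKM in rbpl and 3499 ± 947 RPKM in the wild type (SD, n = 3 each; limma adjusted p of 0.0694 and 0.0671). Without WT-1 both fell, with limma adjusted p of 0.0148 and 0.0124, and without WT-2 the count of endosperm loci was 0 higher and 2 lower. Of the 4 embryo loci 3 passed the RPKM minimum. Of these 3, 0 were called by limma (1 at an unadjusted p below 0.05, as were 3777 of all 17507 tested loci, and 0 by limma-voom). Without WT-1 1 of these 3 rose, EMP1 (LOC_Os05g28210), an embryo protein of the late maturation class, with a log2 fold change of 1.20 and a limma adjusted p of 7.98e-05. With all libraries EMP1 averaged 149 ± 14.8 RPKM in rbpl and 90.4 ± 45.7 RPKM in the wild type (SD, n = 3 each; limma adjusted p of 0.165). The part of these differences in the results below was not tested.

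All 4 small subunit loci rose in the rbpl line, by 1.41-fold to 1.66-fold, and in each of them every rbpl library lay above every wild-type library. Over all tested loci, 3.46% rose and 3.10% fell by limma at an adjusted p below 0.05, and 12.2% had all 3 rbpl libraries above all 3 wild-type libraries. The median log2 fold change of the 4 loci was 0.56, against −0.04 over all 17507 tested loci. By limma-voom on the recovered reads all 4 were also called, with adjusted p of 0.00923 to 0.0393, where 3.44% of tested loci rose. In bulk seed RNA, a changed share of the cells that hold these transcripts and more transcript per cell cannot be told apart. Which cells of the seed held them was not measured.

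LOC_Os02g05830, the chromosome 2 member, had 156, 149 and 139 RPKM in the rbpl libraries, taken in the order rbpl-1 to rbpl-3 here and below, against 99.2, 97.3 and 109 RPKM in the wild-type libraries, in the order WT-1 to WT-3. The groups were separate, WT-1 lay between the other wild-type libraries, and the lowest rbpl library was 1.27 times the highest wild-type library. The means were 148 ± 8.42 RPKM in rbpl and 102 ± 6.47 RPKM in the wild type (SD, n = 3 each), a 1.45-fold difference. The log2 fold change was 0.53 ± 0.10 (SE; 95% interval 0.30 to 0.77), with an adjusted p of 0.0227 by limma. Without WT-1 it was 0.51, with an adjusted p of 0.00243. The call was lost, with limma adjusted p of 0.117, 0.123 and 0.0736, when rbpl-1, rbpl-2 or rbpl-3 was left out, and at 0.0813 without WT-2.

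LOC_Os12g17600, a leaf-type member, had 129, 131 and 129.6 RPKM in rbpl, against 66.8, 85.1 and 82.5 RPKM in the wild type. It was the 1 member in which WT-1 was the lowest library, at 79.6% of the mean of WT-2 and WT-3. The means were 130.1 ± 1.08 RPKM in rbpl and 78.1 ± 9.95 RPKM in the wild type (SD, n = 3 each), a 1.66-fold difference. Without WT-1 the difference was 1.55-fold. The log2 fold change was 0.74 ± 0.12 (SE; 95% interval 0.46 to 1.01), with an adjusted p of 0.0114 by limma. Without WT-1 it was 0.63, with an adjusted p of 0.000239. It was no longer called without rbpl-1, rbpl-2 or rbpl-3 (limma adjusted p of 0.0669, 0.0687 and 0.0622).

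LOC_Os12g19381, also leaf-type, had the highest level of the family, with 248, 243 and 246 RPKM in rbpl and 171, 153 and 164 RPKM in the wild type. Here WT-1 was the highest wild-type library, and it was still below all rbpl libraries. The means were 246 ± 2.04 RPKM in rbpl and 163 ± 9.16 RPKM in the wild type (SD, n = 3 each), a 1.51-fold difference. The log2 fold change was 0.59 ± 0.10 (SE; 95% interval 0.37 to 0.82), with an adjusted p of 0.0123 by limma. Leaving out WT-1 gave 0.63 with an adjusted p of 0.000258. Leaving out rbpl-1, rbpl-2, rbpl-3 or WT-2 ended the call, at limma adjusted p of 0.0745, 0.0792, 0.0678 and 0.051.

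LOC_Os12g19470, the third leaf-type member with a row, had the lowest level, with 41.4, 38.7 and 45.5 RPKM in rbpl and 32.4, 26.7 and 29.8 RPKM in the wild type. WT-1 was again the highest wild-type library, and the gap between the groups was the narrowest of the family, with the lowest rbpl library at 1.2 times the highest wild-type library. The means were 41.9 ± 3.41 RPKM in rbpl and 29.6 ± 2.83 RPKM in the wild type (SD, n = 3 each), a 1.41-fold difference. The log2 fold change was 0.49 ± 0.11 (SE; 95% interval 0.22 to 0.75), with an adjusted p of 0.0452 by limma. This call was near the threshold. Without rbpl-1, rbpl-2, rbpl-3, WT-2 or WT-3 the limma adjusted p was 0.163, 0.124, 0.167, 0.136 and 0.109, and without WT-1 it was 0.00232. With no filter on low loci, which enlarges the adjustment to 32287 loci, it was 0.0841.

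**Figure D1:**
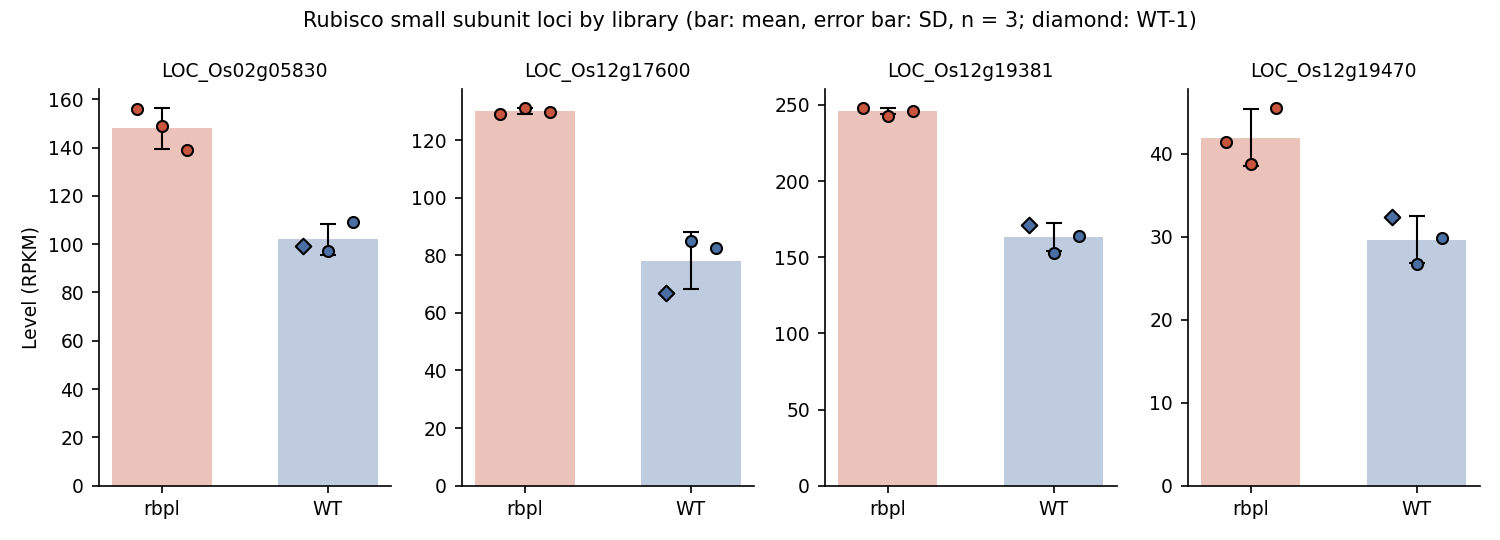
Level in RPKM (vertical axis, from 0, a separate scale per panel) of the 4 Rubisco small subunit loci in rbpl and wild-type seed libraries; bars are means, error bars SD (n = 3 each), points single libraries and diamonds WT-1. In every panel the 3 rbpl points lie above the 3 wild-type points, and WT-1 is the lowest point for LOC_Os12g17600 only.

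The exact permutation test of the RPKM of each locus gave p = 0.1 (two-sided), the smallest value that 3 against 3 libraries allow. The reads behind these levels were many, from 4433 to 13580 per locus in rbpl libraries and from 2695 to 9227 in wild-type libraries. Counting error, as the root mean square over the 3 libraries of a group, was between 0.867% and 1.78% of the level. In rbpl, LOC_Os12g17600 and LOC_Os12g19381 varied by 0.828% and 0.83% between libraries, against counting errors of 1.17% and 0.867%. The other 2 members varied by 5.7% and 8.15% in rbpl, and all 4 by 5.64% to 12.7% in the wild type, more than counting error alone.

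By level per length, LOC_Os12g19381 came first in all 6 libraries, followed by LOC_Os02g05830, LOC_Os12g17600 and LOC_Os12g19470, with no overlap between neighbours in this order within either group. The mean of LOC_Os12g19381 was above that of 97.4% of tested loci and the mean of LOC_Os12g19470 above that of 85.6%. The gene model of LOC_Os12g19470 was 2281 bp long by the recovered reads, against 1112 to 1359 bp for the other 3. Its RPKM is lower for that length, and in reads it was closer to LOC_Os12g17600. It had 4433 to 5025 reads in rbpl and 2695 to 3479 in the wild type, and LOC_Os12g17600 had 7152 to 7648 in rbpl and 3648 to 4860 in the wild type. The coding sequences of the leaf-type genes of chromosome 12 are known to be nearly identical, and how reads were counted is not known here. Reads may therefore be divided among these 3 loci, or taken from LOC_Os12g19394, so their single levels are uncertain.

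Their sum is less open to such division within the chromosome 12 set. The 3 chromosome 12 loci together had 418, 414 and 421 RPKM in rbpl, against 270.3, 265 and 276 RPKM in the wild type, 1.54-fold more in rbpl with and without WT-1. The 4 loci together had 574, 562 and 560.2 RPKM in the rbpl libraries and 369, 362 and 385 RPKM in the wild-type libraries. The groups did not overlap, and WT-1 stood at 98.9% of the mean of WT-2 and WT-3. The sum made up 0.0914 ± 0.000622% of all RPKM in rbpl and 0.0613 ± 0.0016% in the wild type (SD, n = 3 each). These sums are given without a test, since the members were chosen with results known.

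The make-up of the small subunit transcript was much alike in both groups. It rests on the single levels of the chromosome 12 loci, which are uncertain as said above. LOC_Os02g05830 gave 26.1 ± 1.19% of the summed RPKM of the 4 loci in rbpl and 27.4 ± 0.877% in the wild type (SD, n = 3 each). LOC_Os12g19381 gave 43.4 ± 0.416% in rbpl and 43.7 ± 2.3% in the wild type. LOC_Os12g17600 gave 23.0 ± 0.429% in rbpl and 21.0 ± 2.75% in the wild type, and LOC_Os12g19470 gave 7.41 ± 0.641% in rbpl and 7.96 ± 0.721% in the wild type. The ranges of the 2 groups overlapped for each of the 4 shares. The share of the chromosome 2 gene, known for activity outside leaf blades, ran from 24.8% to 27.1% in rbpl and from 26.8% to 28.4% in the wild type. WT-1 departed in these measured shares, with 18.1% from LOC_Os12g17600 there, against 23.5% and 21.4% in WT-2 and WT-3 and 22.5% to 23.4% in rbpl. Correspondingly, LOC_Os12g19381 exceeded LOC_Os12g17600 by a ratio of 1.85 to 1.91 in the rbpl libraries, of 2.56 in WT-1 and of 1.8 and 1.98 in WT-2 and WT-3.

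**Figure D2:**
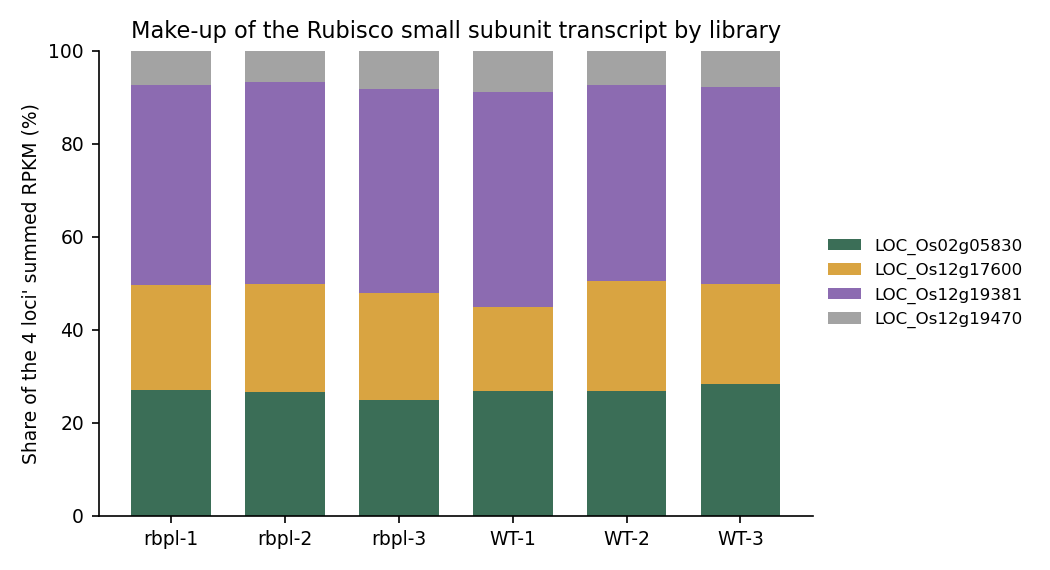
Share of each of the 4 Rubisco small subunit loci in their summed RPKM (vertical axis, %), for each rbpl and wild-type library (horizontal axis). The stacks are alike but for WT-1, where LOC_Os12g17600 gives 18.1% and LOC_Os12g19381 46.3%.

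Of the 20 tested loci nearest to LOC_Os02g05830, 10 on each side in order of locus number, 0 were called by limma (0 at an unadjusted p below 0.05), with log2 fold changes from −0.27 to 0.24. Around LOC_Os12g17600, 0 of 20 were called by limma and 1 had an unadjusted p below 0.05, with log2 fold changes from −0.52 to 0.42. Around LOC_Os12g19381 and LOC_Os12g19470, which are consecutive tested loci, 1 of 19 fell and 0 rose, from −0.78 to 0.30, and 5 and 4 of 19 had an unadjusted p below 0.05. Of all 17507 tested loci 6.56% changed by limma, and 3777 had an unadjusted p below 0.05. Without WT-1, 0 to 2 of each set of neighbours rose and 0 to 2 fell.

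The genes of the rest of the Calvin cycle were taken as a list of 13 loci. Their names, like those of the other lists, come from general knowledge of rice locus numbers, since the files and the reference table do not pair these identifiers with names. Of the 13 loci, 7 rose and 0 fell by limma, with a median log2 fold change of 0.45 and a range from 0.17 to 1.53. Rubisco activase, LOC_Os11g47970, rose most within the list. It had 180.1, 194 and 182 RPKM in rbpl, against 52.1, 74.8 and 66.1 RPKM in the wild type. That is 2.88-fold, a log2 fold change of 1.53 ± 0.14 (SE) with an adjusted p of 0.00129 by limma, and 2.63-fold without WT-1.

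Most other called enzymes of the list rose by amounts near those of the small subunit. Phosphoribulokinase (LOC_Os02g47020), which makes the sugar that Rubisco carboxylates, averaged 34.1 ± 2.86 RPKM in rbpl and 20.6 ± 1.14 RPKM in the wild type (SD, n = 3 each), with an adjusted p of 0.00835 by limma. Chloroplast phosphoglycerate kinase (LOC_Os05g41640), which acts on the product of Rubisco, averaged 107 RPKM in rbpl and 66.4 RPKM in the wild type. Chloroplast aldolase (LOC_Os11g07020) averaged 315 RPKM in rbpl and 198 RPKM in the wild type. Both differed 1.6-fold, with limma adjusted p of 0.00959 and 0.0132. The bisphosphatases of the regeneration phase differed 1.61-fold (LOC_Os03g16050) and 1.38-fold (LOC_Os04g16680), with limma adjusted p of 0.024 and 0.0385. The remaining called locus, GAPA (LOC_Os04g38600), named here after its value was seen, differed 1.9-fold, with a limma adjusted p of 0.0427. The uncalled loci of the list differed less, by 1.13-fold to 1.36-fold. The count of 7 was 9 without WT-1, but 2 without rbpl-1, 1 without rbpl-2, 2 without rbpl-3 and 4 with no filter on low loci.

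None of the chaperonins that fold the large subunit passed the test with all libraries. Of 4 listed loci 0 were called by limma (0 at an unadjusted p below 0.05, and 0 by limma-voom), with log2 fold changes from −0.31 to 0.15. LOC_Os03g64210 averaged 93.9 ± 6.33 RPKM in rbpl and 102 ± 8.92 RPKM in the wild type, and LOC_Os06g02380 averaged 81.1 ± 6.56 RPKM in rbpl and 102 ± 25.9 RPKM in the wild type (SD, n = 3 each). WT-1 was the highest library in the summed level of this list, at 134% of the mean of WT-2 and WT-3. Without WT-1, 1 of the 4 rose.

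Genes of the light reactions were also listed. Of 19 photosystem subunits and electron carriers, 11 rose and 0 fell by limma, with a median log2 fold change of 0.66. Ferredoxin (LOC_Os08g01380), which passes electrons on from photosystem I, averaged 675 ± 36.6 RPKM in rbpl and 308 ± 53.6 RPKM in the wild type (SD, n = 3 each; adjusted p of 0.00464 by limma). The photosystem I subunit loci LOC_Os12g08770, LOC_Os07g05480, LOC_Os09g30340, LOC_Os04g33830 and LOC_Os05g48630 rose by 1.58-fold to 2.14-fold. The count of 11 was 18 without WT-1 and 3, 3 and 4 when rbpl-1, rbpl-2 or rbpl-3 was left out, and 6 without WT-2. It was 5 with no filter on low loci.

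Of 10 loci of chlorophyll synthesis, 4 rose and 0 fell by limma, with a median log2 fold change of 0.62. GUN4 (LOC_Os11g16550), which assists magnesium insertion, averaged 8.07 RPKM in rbpl and 3.04 RPKM in the wild type, with a log2 fold change of 1.17 (limma adjusted p of 0.000996). HEMA1 (LOC_Os10g35840), which opens the pathway, and CHLH (LOC_Os03g20700), a magnesium chelatase subunit, differed 1.67-fold and 1.64-fold, with limma adjusted p of 0.0043 and 0.0111. CAO1 (LOC_Os10g41780), which makes chlorophyll b, differed 1.66-fold, with an adjusted p of 0.0401. Among the uncalled loci, CHLD (LOC_Os03g59640) and CHLG (LOC_Os05g28200), named here after their values were seen, had log2 fold changes of −0.20 and −0.26. In CHLG all 3 rbpl libraries lay below all 3 wild-type libraries. Of the 10 loci 8 had groups that did not overlap, 7 of them with rbpl above. Over all 17507 tested loci these counts were 5270 and 2140. The count of 4 called loci was 2 without each of the rbpl libraries in turn and 6 without WT-1. Among 4 regulators of greening, the transcription factor GLK1 (LOC_Os06g24070) rose, at 1.55 ± 0.207 RPKM in rbpl and 0.849 ± 0.0592 RPKM in the wild type (SD, n = 3 each; adjusted p of 0.0449 by limma). It passed the RPKM minimum only through its rbpl mean. GLK2 (LOC_Os01g13740), PHYA (LOC_Os03g51030) and PHYB (LOC_Os03g19590) were not called, with log2 fold changes of 0.40, −0.06 and −0.16. The GLK1 call was kept without WT-1 and lost without each of the other 5 libraries and with no filter. A filter at 5 RPKM left GLK1 untested.

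**Figure D3:**
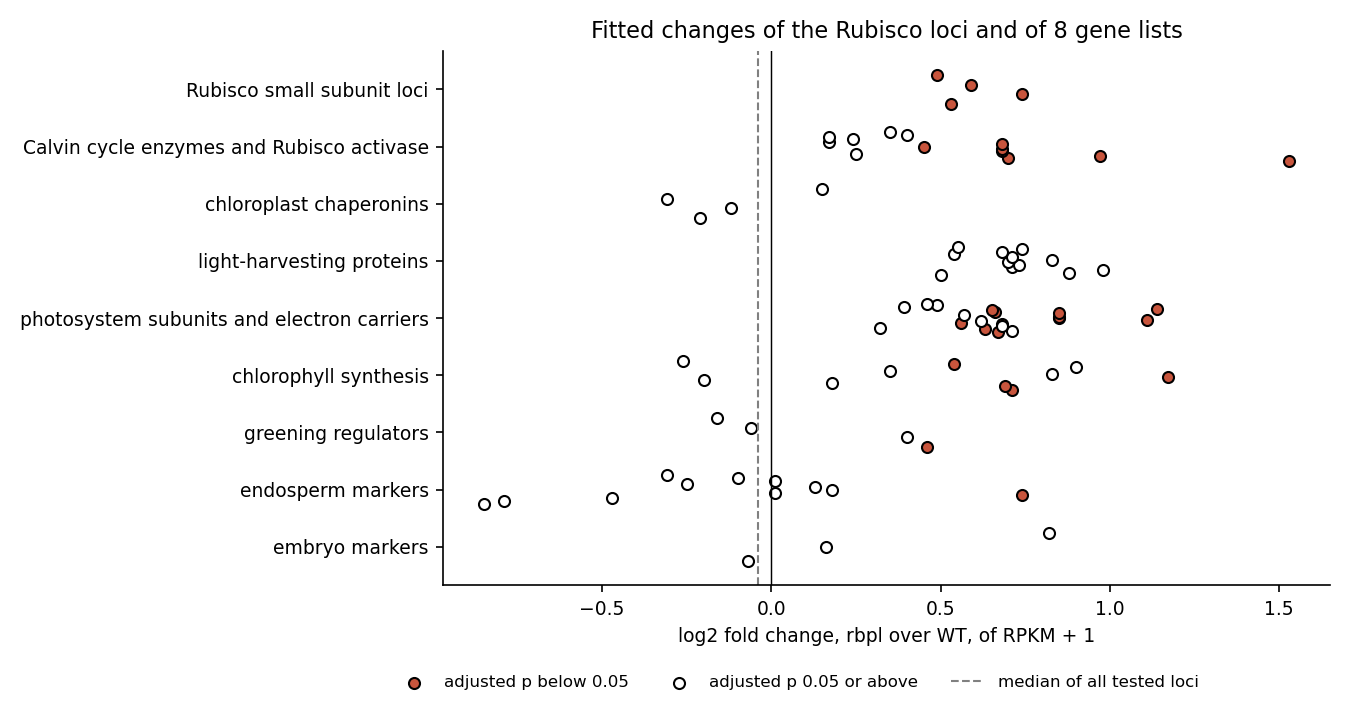
Fitted log2 fold change of rbpl over WT (horizontal axis, from RPKM + 1) for each of the 4 Rubisco small subunit loci and for the tested loci of 8 gene lists (rows); filled points have an adjusted p below 0.05 by limma and the dashed line is the median of all tested loci, −0.04. The Rubisco loci lie between 0.49 and 0.74, and Rubisco activase is the point at 1.53.

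Light-harvesting chlorophyll proteins, which collect light for both photosystems, had their lowest level in WT-1. Of 12 listed loci 0 were called by limma with all libraries (11 at an unadjusted p below 0.05, and 2 by limma-voom), with a median log2 fold change of 0.71. An unadjusted p below 0.05 was found for 3777 of all 17507 tested loci. Without WT-1, 10 of the 12 rose, where 8.51% of all tested loci rose and 9.51% fell, and the median log2 fold change was 0.42. LOC_Os01g41710, the most abundant, averaged 2697 ± 254 RPKM in rbpl and 2026 ± 796 RPKM in the wild type (SD, n = 3 each; adjusted p of 0.378 by limma). LOC_Os01g52240 averaged 1900.5 ± 224 RPKM in rbpl and 1049 ± 478 RPKM in the wild type, with an adjusted p of 0.159 by limma, and of 0.00718 without WT-1.

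The small subunit sum did not share this departure, though its locus LOC_Os12g17600 was lowest in WT-1. The 12 light-harvesting loci summed to 11853, 12374 and 10652 RPKM in rbpl, against 4403, 9221 and 8764 RPKM in the wild type. WT-1 thus stood at 49.0% of the mean of WT-2 and WT-3 for light harvesting, at 74.4% for the photosystem list, at 81.3% for the Calvin cycle list and at 67.0% for chlorophyll synthesis, but at 98.9% for the 4 small subunit loci. By single member, WT-1 stood at 96% for LOC_Os02g05830, 79.6% for LOC_Os12g17600, 108% for LOC_Os12g19381 and 115% for LOC_Os12g19470. The sum thus levels out departures in both directions. Loci within the other lists also differed in this, and in some, such as LOC_Os07g05480, WT-1 was not the lowest wild-type library. The endosperm list was at 139% in WT-1 and the embryo list at 94.7%. Whether the balance of tissues in WT-1 has a part in these values was not tested. The difference of rbpl from the wild type in the small subunit sum was 1.52-fold with WT-1 and 1.51-fold without it, while that of the light-harvesting sum was 1.56-fold with WT-1 and 1.29-fold without it.

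**Figure D4:**
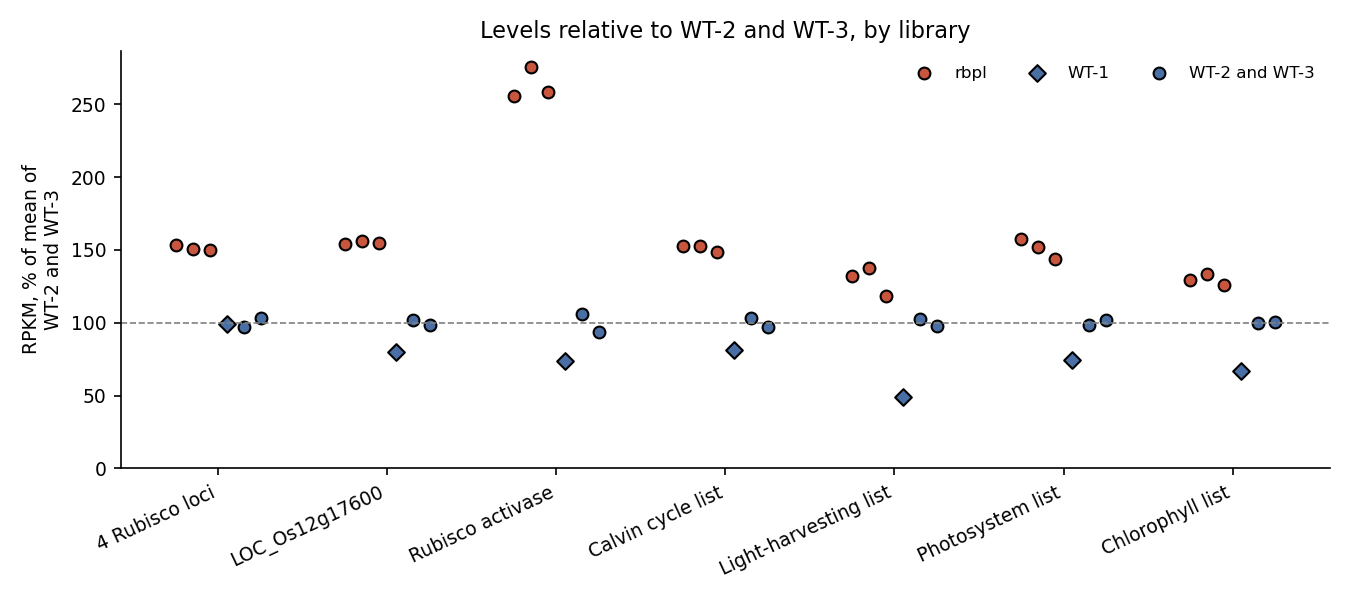
Level in each library as a percent of the mean of WT-2 and WT-3 (vertical axis, RPKM summed where a list is named), for the 4 Rubisco small subunit loci together, LOC_Os12g17600, Rubisco activase and 4 lists. The WT-1 diamonds lie below the other wild-type points except for the sum of the 4 Rubisco loci, where WT-1 is at 98.9%, and the lowest is 49.0% for light harvesting.

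Set against Rubisco activase, the small subunit was relatively lower in rbpl. The ratio of the summed RPKM of the 4 loci to that of activase was 3.19, 2.89 and 3.07 in rbpl, against 7.09, 4.84 and 5.83 in the wild type. The groups did not overlap, and the mean ratio in rbpl was 0.515 of that in the wild type, or 0.572 without WT-1. Each of the 4 loci gave separate groups in its own ratio to activase, with the rbpl mean at 0.475 to 0.574 of the wild-type mean. All these ratios share activase as denominator, which rose 2.88-fold, against 1.41-fold to 1.66-fold for the members. Lower ratios in rbpl follow from those folds and are not a further result. The ratio of the 4 loci to the whole Calvin cycle list was 0.398 ± 0.00456 in rbpl and 0.427 ± 0.0551 in the wild type (SD, n = 3 each), with overlapping groups. These ratios are descriptions with no test.

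Per length, the 4 small subunit loci together were far below the 12 light-harvesting loci in these seeds. LOC_Os12g19394 had no row and how reads were counted is not known, so the level of the whole family may be higher. The ratio of the 4 loci to the 12 light-harvesting loci was 0.0484, 0.0454 and 0.0526 in rbpl, and 0.0839, 0.0393 and 0.044 in the wild type. WT-1 had the highest ratio of all libraries, while WT-2 and WT-3 lay below every rbpl library, so the groups overlapped. The single locus LOC_Os01g41710, at 2413 to 2904 RPKM in rbpl and 1114 to 2582 RPKM in the wild type, exceeded the sum of the 4 small subunit loci in all 6 libraries.

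**Figure D5:**
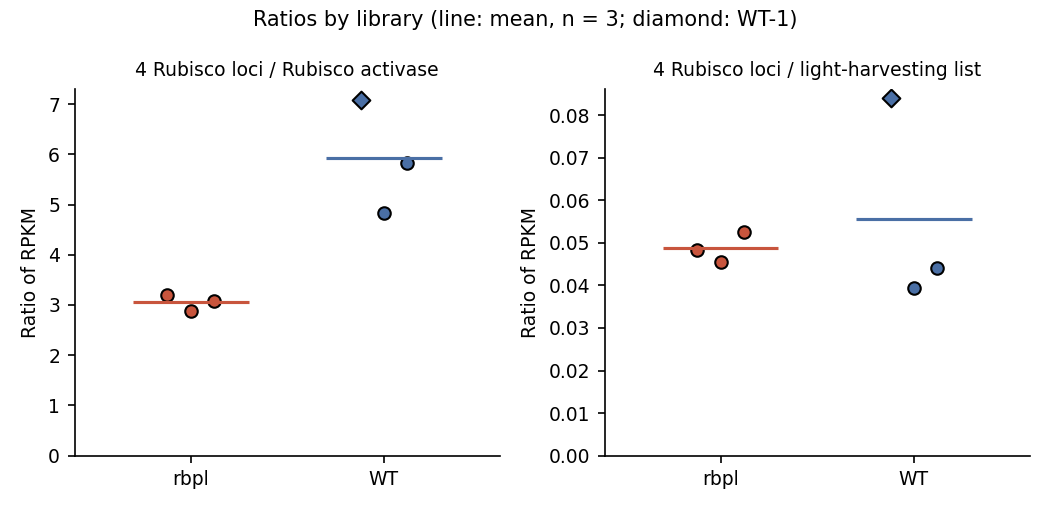
Ratio of the summed RPKM of the 4 Rubisco small subunit loci to that of Rubisco activase (left) and of 12 light-harvesting loci (right), on vertical axes from 0, for rbpl and wild-type libraries; lines are means (n = 3) and diamonds WT-1. The activase ratio is 2.89 to 3.19 in rbpl and 4.84 to 7.09 in the wild type, whereas the light-harvesting ratio overlaps, with WT-1 at 0.0839.

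Likeness of profile was measured as the root mean square difference of log2(RPKM + 1) over the 6 libraries, each profile centred on its mean, among the 8749 tested loci above the median level. The locus closest to LOC_Os02g05830 was LOC_Os01g65100, at 0.037, with 92.5, 87.9 and 83.4 RPKM in rbpl and 59.3, 56.5 and 60.8 RPKM in the wild type. The next was at 0.040. The locus closest to LOC_Os12g19381 was LOC_Os03g11614, at 0.046, with means of 26.3 RPKM in rbpl and 17.1 RPKM in the wild type, and the next was at 0.047. The files give no product for either locus. Chloroplast aldolase, LOC_Os11g07020, was the second closest to LOC_Os12g17600, at 0.042, and is named here after its value was seen. The differences between members ran from 0.082 between LOC_Os02g05830 and LOC_Os12g19381 to 0.231 between LOC_Os12g17600 and LOC_Os12g19470. Of the 8749 loci, 33 were closer to LOC_Os02g05830 than LOC_Os12g19381 was, and 21 the other way round. To LOC_Os12g19470, 1540 were closer than LOC_Os12g17600 was, and 498 the other way round. Among so many loci the closest is nearly bound to lie nearer than another member. Its distance thus does not show whether the members are alike.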

How the data were processed

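RNA of developing seeds of 3 rbpl and 3 wild-type samples was sequenced from NEBNext Ultra libraries, per the labels' protocols. The authors deposited 1 table of RPKM per locus and library, per the file headers; the sources used here give no aligner, counter, genome build or annotation. The authors' group means in RPKM were not used for any value. Whole reads, library totals and model lengths were recovered from the RPKM steps: all 32287 loci above 0 gave whole reads within 0.001 reads, and 98.7% of 3334 simulated loci with at least 100 reads came back exactly. Counting errors cover counting only.

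Groups were compared with limma 3.58.1 in R 4.3.3, using log2(RPKM + 1), robust moderation with a mean trend and no covariate. A locus was tested if its mean reached 1 RPKM in either group (17507 loci). Tests were two-sided, p-values were adjusted over all tested loci by Benjamini-Hochberg, and the threshold was 0.05. Fold changes on this scale understate those of low loci; folds are ratios of mean RPKM. Limma was tested on simulated data, where it recovered 70% of 2-fold and 95% of 4-fold changes and called 6 unchanged loci. Simulated libraries were drawn independently at each locus. A departure of a whole library over many loci, as seen in WT-1, was therefore not simulated. The members differed by 1.41-fold to 1.66-fold, less than the folds simulated. Python 3.11.15, numpy 2.4.6, pandas 2.3.3, scipy 1.17.1 and matplotlib 3.10.9 served for the rest. Of the identifiers, 0 were found among 39387 RefSeq genes. All 77 listed loci had a row. The members, lists and tests were chosen with earlier results of these data known. Loci named were the members, RBP-L, up to 6 called loci per list in order of adjusted p (or the 2 most abundant where none was called), and the closest profiles. Some further listed loci were named after their values were seen.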

Additional observations from a re-analysis of the deposited data

How the results depend on the processing

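Every member stayed higher in rbpl under all 13 alternatives, with log2 fold changes of 0.49 to 0.59 (LOC_Os02g05830), 0.63 to 0.80 (LOC_Os12g17600), 0.55 to 0.65 (LOC_Os12g19381) and 0.42 to 0.55 (LOC_Os12g19470). Leaving out 1 library gave 0.49 to 0.58, 0.63 to 0.80, 0.55 to 0.63 and 0.42 to 0.55, with limma adjusted p of 0.00243 to 0.123, 0.000239 to 0.0687, 0.000258 to 0.0792 and 0.00232 to 0.167. Without each rbpl library all 4 calls were lost, without WT-2 all but that of LOC_Os12g17600, without WT-3 that of LOC_Os12g19470, and without WT-1 none. RBP-L kept its call in all 13, from −1.93 to −1.79. No filter on low loci left LOC_Os12g19470 at 0.49 and uncalled. Loci changed over the table numbered 1148, 660 with a filter at 5 RPKM (10744 loci tested), and 356 to 3130 with 1 library left out (3130 without WT-1). Median-of-ratios scaling gave a 1.58-fold higher sum of the 4 loci, against 1.52-fold, and 1.5 to 1.55 when 1 library was left out. The replicate numbers are only shared: deviations of same-numbered libraries correlated at 0.0476, 0.259 and −0.38, and 2 of 6 libraries were closest to the library of their own number. With the replicate block 963 loci changed, and LOC_Os02g05830 (0.53, limma adjusted p of 0.066) and LOC_Os12g19470 (0.49, 0.0797) were not called, nor was any of the 4 regulators of greening. Of the lists, light harvesting had 0 to 10 calls over the alternatives, the photosystem list 3 to 18, the Calvin cycle list 1 to 9 and chlorophyll synthesis 2 to 6. Beyond fewer libraries or loci, the cause was not tested. Depth did not limit the members, whose counting error was at most 1.78% as the root mean square over the libraries of a group.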
